A study of Mus musculus with 6 samples.

Results

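The nuclear respiratory chain genes are the nuclear genes that encode the protein complexes of mitochondrial electron transport and ATP synthesis. They were chosen by gene symbol, with no measured value in the rule: every nuclear protein-coding gene whose symbol begins with Ndufa, Ndufb, Ndufc, Ndufs, Ndufv, Uqcr, Atp5 or Cox4 to Cox8, together with Sdha to Sdhd and Cyc1. The rule found 94 genes of the 49315 in the count tables. They are 38 subunits of complex I (with Ndufa4 and Ndufa4l2 counted there by name), 8 assembly factors of complex I (Ndufaf1 to Ndufaf8), all 4 subunits of complex II, 9 subunits of complex III, 18 genes of complex IV including its tissue isoforms, and 17 genes of complex V, the ATP synthase. Of these, 90 had enough counts to be tested among 16134 tested genes, and 86 were above 1 CPM (the reads counted on a gene, scaled for library size and composition by TMM) in every library.

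The cells were liver F4/80-positive cells, isolated with anti-F4/80 beads to enrich Kupffer cells, the macrophages that reside in the liver. They came from 3 WT mice (Lpcat3 fl/fl, LysM +/+) and 3 Lpcat3 KOMac mice (Lpcat3 fl/fl, LysM Cre/+), the WT mice being littermates without Cre, all C57BL/6N, aged 8 to 12 weeks when the diet began and fed a diet with 60% fat for 16 weeks. Both genotypes thus carry floxed Lpcat3, which encodes an enzyme that loads polyunsaturated fatty acids into membrane phospholipids, and only the Lpcat3 KOMac mice carry Cre, expressed from the LysM (Lyz2) locus in myeloid cells. The comparison asks whether loss of Lpcat3 in myeloid cells changed the liver macrophages of mice on this diet. The study used males and females, and the labels do not give the sex of each mouse.

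WT mice 1 to 3 had 85.0, 66.2 and 61.2 CPM of Lpcat3 mRNA. Lpcat3 KOMac mice 1 to 3 had 19.5, 33.3 and 19.4 CPM, so part of the Lpcat3 mRNA remained in these libraries. Which cells it came from was not tested. Total counts per library lay between 44954224 and 71392812. The summed level of 9 Kupffer cell and macrophage markers lay between 34390 and 48970 CPM in WT and between 24924 and 35457 CPM in Lpcat3 KOMac libraries, none of them at 0. All 9 had log2 fold changes below 0 (Lpcat3 KOMac against WT), against 59.9% of all genes tested. Their median was -0.24, and -0.36 without WT mouse 1. At an unadjusted p under 0.05 in edgeR, 2 of them were lower, against 1.57% of all genes tested. These were Clec4f and Lyz2, the gene at the Cre locus. The libraries also held transcripts of hepatocytes in very unequal amounts. The summed level of 15 hepatocyte markers, all detected, was 31857, 2880 and 2302 CPM in WT (mice 1 to 3, in this order throughout) and 6990, 17378 and 6420 CPM in Lpcat3 KOMac mice. WT mouse 1 and Lpcat3 KOMac mouse 2 stood apart in this respect, and each result below is given with that in view. In bulk RNA, fewer cells of a type and less RNA per cell cannot be told apart.

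Complex I takes electrons from NADH and complex II, which is also the succinate dehydrogenase of the tricarboxylic acid cycle, takes them from succinate. Both pass them through coenzyme Q to complex III, and cytochrome c carries them on to complex IV, which reduces oxygen. The proton gradient built on the way drives complex V to make ATP. All of complex II and most subunits of the other complexes are made from nuclear genes, while a few core subunits are made from the mitochondrial genome. Hepatocytes are rich in mitochondria, and macrophages shift between respiration and glycolysis with their state of activation.

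Nuclear respiratory genes are known as targets of the transcription factors NRF1, GABP (an ETS family factor) and YY1. RefSeq promoters of the mouse build GRCm38.p6, from 250 bases before to 50 bases after the annotated start, were found for 74 of the 94 genes and searched on both strands. The NRF1 letters (GCGCA, any base, then GCGC) were present in 19 of the 74 (25.7%) and in 7.17% of the 17491 promoters in the table. The ETS letters CCGGAAG were present in 18 (24.3%, against 12.9% of all promoters) and the YY1 letters AAGATGGC in 10 (13.5%, against 3.57%). In 34 of the 74 none of the 3 was found, which says only that these letters are not in this window. The 120 bases before the start are shown for 6 genes, 5 of which hold matches from complexes I to V and 1 of which, Cox5a, holds none. Cox5a had the lowest ratio of WT mouse 1 to the other WT mice (0.96) among the genes above 1 CPM. A link between these letters and the levels was not tested. Capitals mark the NRF1 or ETS letters, on either strand, and each sequence reads 5′ to 3′ towards the gene.
Sdha (complex II, chr13:74350241-74350360, minus strand, with NRF1 letters): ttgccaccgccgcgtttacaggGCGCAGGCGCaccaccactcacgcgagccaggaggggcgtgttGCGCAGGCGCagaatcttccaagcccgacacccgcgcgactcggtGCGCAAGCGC
Ndufb4 (complex I, chr16:37654369-37654488, minus strand, with NRF1 letters): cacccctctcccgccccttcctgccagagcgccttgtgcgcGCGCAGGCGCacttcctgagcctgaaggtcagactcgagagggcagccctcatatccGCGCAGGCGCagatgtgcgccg
Cox6a1 (complex IV, chr5:115348959-115349078, minus strand, with NRF1 and ETS letters): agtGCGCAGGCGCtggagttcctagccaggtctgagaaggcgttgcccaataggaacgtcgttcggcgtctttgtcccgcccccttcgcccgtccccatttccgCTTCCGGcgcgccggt
Atp5g2 (complex V, chr15:102671048-102671167, minus strand, with NRF1 letters): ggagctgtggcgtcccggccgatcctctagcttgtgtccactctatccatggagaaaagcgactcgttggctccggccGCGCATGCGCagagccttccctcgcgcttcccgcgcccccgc
Uqcr11 (complex III, chr10:80406822-80406941, minus strand, with ETS letters): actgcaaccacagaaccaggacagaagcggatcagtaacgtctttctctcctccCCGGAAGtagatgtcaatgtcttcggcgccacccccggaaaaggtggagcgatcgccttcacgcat
Cox5a (complex IV, chr9:57521112-57521231, plus strand, no match): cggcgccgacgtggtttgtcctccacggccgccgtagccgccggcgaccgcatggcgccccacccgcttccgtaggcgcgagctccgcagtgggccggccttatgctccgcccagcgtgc

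The nuclear respiratory chain genes moved together across the 6 mice, and the largest difference was between single mice. Their summed level was 9405, 6425 and 6423 CPM in WT and 6133, 7338 and 6231 CPM in Lpcat3 KOMac mice. WT mouse 1 was thus 1.53-fold above the lowest library, Lpcat3 KOMac mouse 2 was the highest of its genotype, and the other 4 lay close together. On the log2 scale the median deviation of the 90 tested genes from their own mean over the 6 libraries was 0.43, -0.08 and -0.07 in WT and -0.18, 0.04 and -0.14 in Lpcat3 KOMac mice 1 to 3. Over all 16134 genes these medians stayed between -0.02 and 0.02. WT mouse 1 was the highest library for 86 of the 90 genes, against 28.2% of all genes tested. WT mouse 1 and Lpcat3 KOMac mouse 2 were the 2 highest libraries for 65 of the 90, against 21.8% of all genes. These are also the libraries with the most hepatocyte transcripts. The median Pearson correlation between pairs of the 90 genes was 0.90 over the 6 libraries, which share these differences in cell content and in depth.

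**Figure D1:**
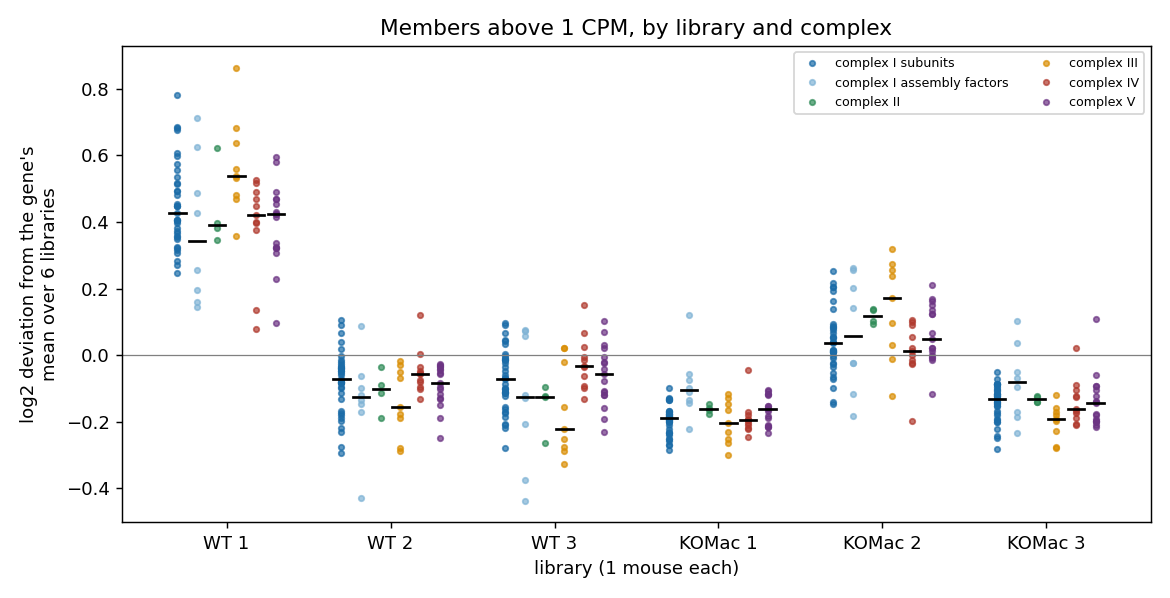
Each point is 1 nuclear respiratory chain gene above 1 CPM in 1 library, as the log2 deviation of its CPM from its own mean over the 6 libraries; colours give the complex and black bars the median of each complex. Every complex was highest in WT mouse 1, with medians between 0.34 and 0.54, and highest within the Lpcat3 KOMac mice in mouse 2.

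The size of this excess differed among the genes. In the 86 genes above 1 CPM, WT mouse 1 was at a median of 1.42 times the mean of WT mice 2 and 3, and 25 of them exceeded 1.5 times. Lpcat3 KOMac mouse 2 was at a median of 1.16 times the mean of Lpcat3 KOMac mice 1 and 3, and above both of them for 79 of the 86 genes. Across these 86 genes the excess in WT mouse 1 and the excess in Lpcat3 KOMac mouse 2 were correlated (Spearman rho = 0.66 across genes, which are not independent). Uqcrq, a small subunit of complex III, had the widest range, with 153, 68.8 and 68.6 CPM in WT and 69.8, 100 and 69.1 CPM in Lpcat3 KOMac mice. Ndufa6, an accessory subunit of complex I, was at 68.6, 32.6 and 34.6 CPM in WT and 35.1, 45.6 and 32.9 CPM in Lpcat3 KOMac mice. At the other end stood Cox5a, described with complex IV below, and the complex I assembly factor Ndufaf8, at 10.79, 10.002 and 9.91 CPM in WT and 8.94, 8.29 and 8.82 CPM in Lpcat3 KOMac mice. Both Cox5a and Ndufaf8 were lower in Lpcat3 KOMac mouse 2 than in either other mouse of that genotype.

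**Figure D2:**
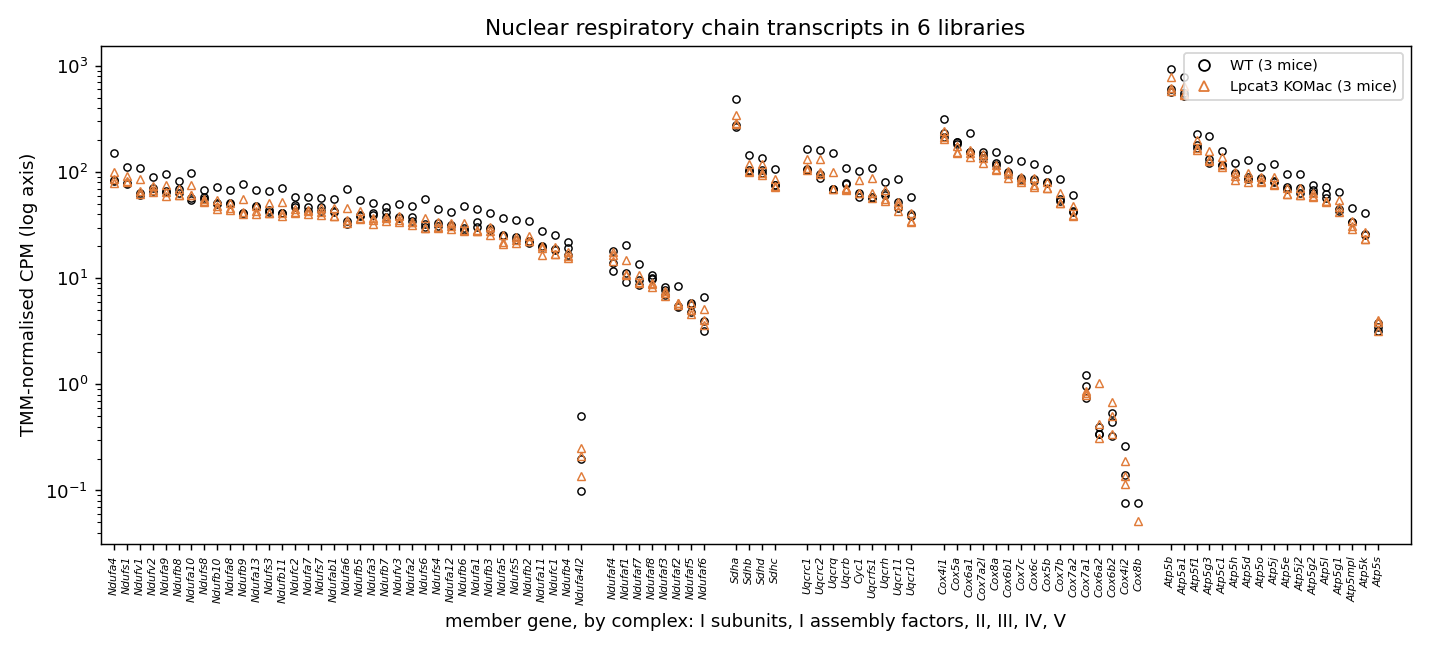
TMM-normalised CPM (log axis) of each gene in each mouse, by complex, with 1 gene left out; black circles are the 3 WT mice and orange triangles the 3 Lpcat3 KOMac mice, and values of 0 are not drawn. Atp5b and Atp5a1 were highest in CPM, 6 isoform genes lay near or below 1 CPM in all mice, and the highest point of nearly every gene is WT mouse 1.

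Between the genotypes the differences were small, and none passed the test. The log2 fold change (Lpcat3 KOMac against WT) was below 0 for 86 of the 90 genes, against 59.9% of all genes tested, with a median of -0.20 beside a median of -0.04 over all genes. No gene of the 90 had an adjusted p under 0.05 by the quasi-likelihood test of edgeR, adjusted by Benjamini-Hochberg (0% of all genes tested did). The same test did not call Lpcat3, the deleted gene, either. Its log2 fold change was -1.56, with every Lpcat3 KOMac mouse below every WT mouse. A lack of calls thus says little about the 90 genes. Each of the 90 had an adjusted p of 1. DESeq2 called 0 of the 88 to which it gave an adjusted p and 0.0744% of all genes, and limma-voom called 0 of the 90. At an unadjusted p under 0.05, edgeR found 4 of the 90 lower and 0 higher, where 1.57% of all genes were lower and 1.07% higher. At that p DESeq2 found 1 lower (1.39% of all genes) and limma-voom 2 (1.42%). In 9 of the 90 every Lpcat3 KOMac mouse was below every WT mouse, against 5.2% of all genes, and in 0 was every Lpcat3 KOMac mouse above, against 2.29% of all genes. With 3 mice against 3, an exact permutation test on 1 gene can go no lower than p = 0.1.

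The lower median rested largely on WT mouse 1. Without that mouse the median was -0.02, beside -0.03 over all genes, and 50 of the 90 genes were below 0, against 55.7% of all genes. Leaving it out did not even out the hepatocyte transcripts but turned their direction. The median log2 fold change of the 15 hepatocyte markers was -0.40 with 6 libraries and 1.85 without WT mouse 1, when 0 of them were below 0. This applies to every value given below without WT mouse 1. Every Lpcat3 KOMac mouse was then below both remaining WT mice for 9 genes, against 15.3% of all genes, and above them for 6, against 16.9%. Without Lpcat3 KOMac mouse 2 the median was -0.26 and the genes separated between genotypes and lower were 34 of 91, against 7.79% of all genes. With both of these mice left out, a comparison chosen after seeing the data, the median was -0.09 beside -0.02, and 66 of 89 genes were below 0, against 54.2% of all genes. In that fit 47 of the 89 were lower in Lpcat3 KOMac mice 1 and 3 than in WT mice 2 and 3. The share over all genes was 21.1%. Another 6 of the 89 were higher in this sense, against 20.1% of all genes. With the scaling of all 6 libraries, 51 of the 86 genes above 1 CPM were lower in this sense, against 21.4% of all genes tested. Among those 4 mice the summed hepatocyte markers were higher in the Lpcat3 KOMac libraries (6990 and 6420 CPM) than in the WT libraries (2880 and 2302 CPM).

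With the mean log2 CPM of 5 hepatocyte transcripts (Alb, Apoa1, Ttr, Serpina1a and Fgb) as a covariate in edgeR, the median of the 90 genes was -0.27 and 86 were below 0, against 49.1% of all genes. In this fit 72 of the 90 were lower at an unadjusted p under 0.05, against 5.52% of all genes, and 0 had an adjusted p under 0.05 (0% of all genes), the smallest adjusted p being 0.48 (edgeR with Benjamini-Hochberg adjustment). The same fit without WT mouse 1, added after seeing the data, gave a median of -0.30 with 85 of 90 below 0, against 48.9% of all genes, and only 11 of the 90 lower at an unadjusted p under 0.05, against 2.01% of all genes, with a smallest adjusted p of 0.89 (edgeR with Benjamini-Hochberg adjustment). Scaling by total counts in place of TMM raised the median of all genes to 0.06, and that of the 90 genes was then -0.10, with 74 below 0, against 35.1% of all genes. The genes are also short, with a median exonic length of 1498 bases beside 3581 over all genes tested. An offset for the relation of counts to length in each library left 86 of 90 below 0 with a median of -0.16, and 5 genes separated and lower, against 3.73% of all genes. The summed levels of 7 endothelial markers ranged from 1525 to 2094 CPM in WT and from 1530 to 1933 CPM in Lpcat3 KOMac libraries, those of 6 stellate cell markers from 84.0 to 203 CPM and from 150 to 265 CPM, those of 9 lymphocyte markers from 6.36 to 10.6 CPM and from 8.07 to 10.1 CPM, and those of 6 neutrophil and monocyte markers from 20.1 to 96.3 CPM and from 57.6 to 77.2 CPM. By gene, 5 of 7 endothelial markers were above 0 (median log2 fold change 0.49), 6 of 6 stellate cell markers (0.38), 4 of 8 tested lymphocyte markers (0.01) and 5 of 5 tested neutrophil and monocyte markers (0.80). Kdr (endothelial) and S100a8 (neutrophil and monocyte) were higher at an unadjusted p under 0.05 in edgeR, against 1.07% of all genes. The part of these cell types in the result, and that of the lower macrophage markers, was not tested.

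**Figure D3:**
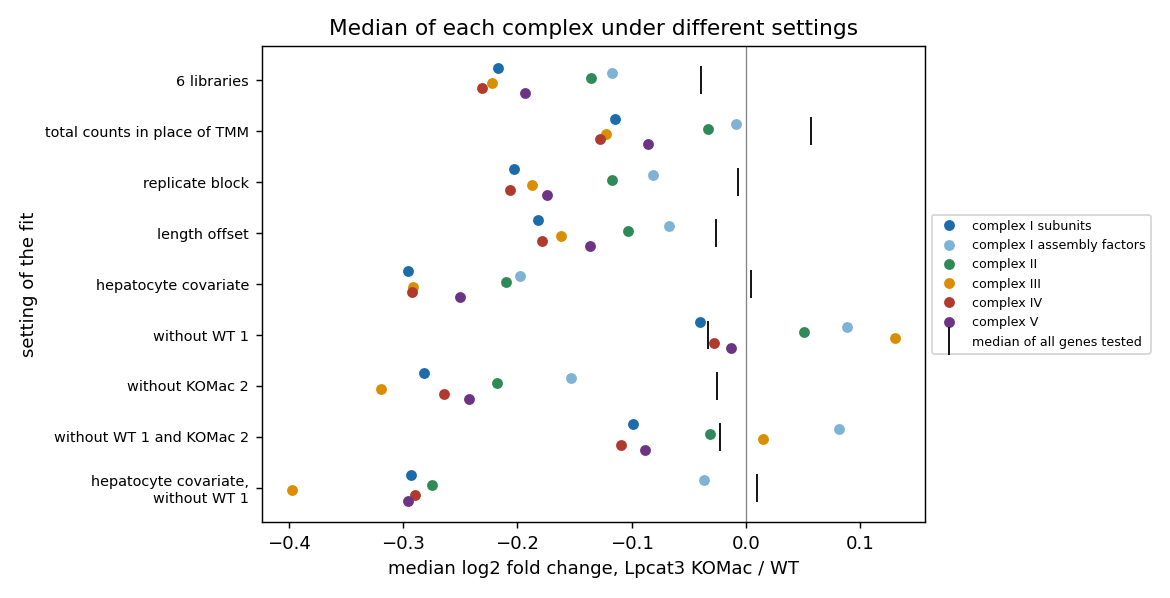
Median log2 fold change (Lpcat3 KOMac against WT) of the tested genes of each complex, 1 row per setting of the fit; the black tick is the median of all genes tested in that setting. All complexes lay left of the tick with 6 libraries, whereas without WT mouse 1 the medians lay between -0.04 and 0.13, and with the hepatocyte covariate between -0.30 and -0.20.

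Complex I had 38 of 38 subunit genes below 0, with a median log2 fold change of -0.22 and a range from -0.45 to -0.07. Without WT mouse 1 the median was -0.04, with 23 of 38 below 0. Its 7 nuclear core subunits, which hold the flavin and the iron-sulphur clusters of the electron path, had a median of -0.12, and 0.06 without WT mouse 1. Ndufs1, its largest subunit, was at 112, 78.8 and 77.4 CPM in WT and 80.6, 91.7 and 82.1 CPM in Lpcat3 KOMac mice. Its genotypes overlapped, and 2 of the 3 WT mice were below every Lpcat3 KOMac mouse. Ndufv1, which binds NADH, was at 108, 60.2 and 63.0 CPM in WT and 62.5, 86.9 and 67.0 CPM in Lpcat3 KOMac mice, with a log2 fold change of -0.10 (SE 0.27). Ndufv2, its partner in the NADH-oxidising module, had -0.12 (SE 0.14). Ndufs7, at the site where coenzyme Q is reduced, had -0.20 (SE 0.13). Ndufs3, in the same arm of the complex, had -0.19 (SE 0.22).

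Ndufs8, which carries 2 iron-sulphur clusters, was the core subunit with the least overlap. It was at 67.5, 56.2 and 58.7 CPM in WT and at 52.1, 55.6 and 53.0 CPM in Lpcat3 KOMac mice, so that every Lpcat3 KOMac mouse was below every WT mouse. Its mean was 60.8 ± 5.96 CPM in WT against 53.6 ± 1.85 CPM in Lpcat3 KOMac cells (SD, n = 3 each), with a log2 fold change of -0.18 (SE 0.10). The lowest WT mouse (56.2 CPM) and the highest Lpcat3 KOMac mouse (55.6 CPM) were close.

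Among the accessory subunits, which surround the core, 4 were separated between the genotypes. With Ndufs8 this made 5 of the 38 subunit genes of complex I, against 5.2% of all genes. Only 1 of the 38 was separated and lower with the length offset (3.73% of all genes), and 3 with DESeq2's size factors (4.38%). Ndufa3 was at 51.3, 39.4 and 41.5 CPM in WT and 32.3, 35.2 and 36.6 CPM in Lpcat3 KOMac mice. Its mean was 44.1 ± 6.33 CPM in WT against 34.7 ± 2.18 CPM in Lpcat3 KOMac cells (SD, n = 3 each), with a log2 fold change of -0.34 (SE, the standard error, 0.13), and its unadjusted p in edgeR, 0.035, was the lowest of the 90 genes. It kept a log2 fold change of -0.22 without WT mouse 1. Ndufc2 was at 58.3, 48.8 and 46.8 CPM in WT and 41.3, 44.5 and 42.1 CPM in Lpcat3 KOMac mice, a log2 fold change of -0.27 (SE 0.11). Ndufa1, an X-linked subunit of the membrane arm, was at 44.7, 33.8 and 30.2 CPM in WT and 28.1, 28.8 and 27.7 CPM in Lpcat3 KOMac mice, a log2 fold change of -0.36 (SE 0.16). The fourth was Ndufa2, at 48.1, 34.3 and 37.9 CPM in WT and 31.7, 33.8 and 33.9 CPM in Lpcat3 KOMac mice. In all 4 the lowest WT mouse lay only slightly above the highest Lpcat3 KOMac mouse. Ndufa2 shares 60 exonic bases with Tmco6 on the other strand, which had up to 954 counts, and Ndufa3 shares 8 bases with Tfpt.

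Ndufa4, a protein first assigned to complex I and since found in complex IV, was at 151, 84.0 and 83.3 CPM in WT and 79.5, 99.6 and 85.8 CPM in Lpcat3 KOMac mice. Ndufa4l2, its hypoxia-induced paralog, was below 0.51 CPM in every mouse. Per kb of exon it made up at most 0.48% of the Ndufa4 and Ndufa4l2 total, and 30 of its bases overlap exons of Shmt2, which had up to 7046 counts where Ndufa4l2 had at most 33. Its log2 fold change of -0.45 (SE 0.65) was the lowest of all the genes and changed to 0.43 without WT mouse 1. Ndufa1 was the highest subunit gene of complex I in CPM per kb of exon (76.8 over all libraries).

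The 8 assembly factors of complex I, which build the complex without staying in it, had a median log2 fold change of -0.12, with 7 below 0. Without WT mouse 1 the median was 0.09, with 3 below 0. They were low in level, from 2.96 (Ndufaf5) to 11.3 (Ndufaf8) CPM per kb of exon. Ndufaf8 was separated between the genotypes, with a mean of 10.2 ± 0.48 CPM in WT against 8.68 ± 0.34 CPM in Lpcat3 KOMac cells (SD, n = 3 each), and a log2 fold change of -0.24 (SE 0.11). Without WT mouse 1 it was at -0.20, but at -0.075 when the hepatocyte covariate was added to that fit. Ndufaf4 was at 18.1, 13.8 and 11.7 CPM in WT and 16.5, 17.5 and 14.5 CPM in Lpcat3 KOMac mice, a log2 fold change of 0.15 (SE 0.19). It was the only gene of complex I or its assembly factors above 0 in the fit of 6 libraries. Ndufaf5, which modifies a core subunit, was at 5.82, 4.85 and 5.55 CPM in WT and 5.06, 5.81 and 4.63 CPM in Lpcat3 KOMac mice, with the genotypes fully mixed. Ndufaf3 shares 109 exonic bases with Impdh2 on the other strand, whose counts reached 3134 against 536 for Ndufaf3.

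All 4 genes of complex II were below 0, with a median of -0.14, and all were highest in WT mouse 1. Sdha, the flavoprotein that oxidises succinate, was at 487, 278 and 263 CPM in WT and 283, 348 and 287 CPM in Lpcat3 KOMac mice, so that every Lpcat3 KOMac mouse lay above WT mice 2 and 3. Its log2 fold change was -0.16 (SE 0.26) and became 0.18 without WT mouse 1. Sdhb, the iron-sulphur subunit, was at 145, 105 and 102 CPM in WT and 101, 120 and 102 CPM in Lpcat3 KOMac mice. The membrane anchors Sdhc and Sdhd had -0.14 (SE 0.17) and -0.13 (SE 0.16) on the log2 scale. None of the 4 was separated between the genotypes, and without WT mouse 1 all 4 were above 0, with a median of 0.05. Per kb of exon the highest was Sdhd (87.8 CPM) and the lowest Sdhc (25.3 CPM).

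In complex III all 9 genes were below 0, with a median of -0.22, and its median deviations in WT mouse 1 (0.54) and Lpcat3 KOMac mouse 2 (0.17) were the highest of the complexes. Without WT mouse 1 its median turned to 0.13, with 5 of 9 above 0. Cyc1, which encodes cytochrome c1, was at 103, 63.8 and 58.7 CPM in WT and 63.4, 83.8 and 63.2 CPM in Lpcat3 KOMac mice. Uqcrfs1, the Rieske iron-sulphur protein, was at 108, 57.5 and 58.6 CPM in WT and 63.1, 87.0 and 57.6 CPM in Lpcat3 KOMac mice. For both, Lpcat3 KOMac mouse 2 was well above WT mice 2 and 3. Their log2 fold changes were -0.10 (SE 0.25) and -0.11 (SE 0.31), and 0.20 and 0.26 without WT mouse 1. The core protein Uqcrc1 was at 164, 105 and 107 CPM in WT and 109, 134 and 105 CPM in Lpcat3 KOMac mice. Uqcrb, a small subunit that takes part in coenzyme Q binding, was separated instead. It was at 108, 76.7 and 78.7 CPM in WT and 67.3, 71.2 and 69.4 CPM in Lpcat3 KOMac mice, with a mean of 87.9 ± 17.7 CPM (SD, n = 3) against 69.3 ± 1.94 CPM (SD, n = 3) and a log2 fold change of -0.34 (SE 0.15). It was also the gene of complex III with the highest level per kb of exon (89.7 CPM) and Uqcrc1 the one with the lowest (29.2 CPM).

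Complex IV had 12 of 14 tested genes below 0, with a median of -0.23, which was -0.03 (11 of 14 below 0) without WT mouse 1. Cox5a, a subunit on the matrix side that enters the complex early in its assembly, departed from the common pattern. It was at 184, 190 and 194 CPM in WT and 155, 152 and 177 CPM in Lpcat3 KOMac mice, so that WT mouse 1 was the lowest WT mouse and all Lpcat3 KOMac mice were below it. Its mean was 190 ± 4.83 CPM in WT against 162 ± 13.6 CPM in Lpcat3 KOMac cells (SD, n = 3 each), with a log2 fold change of -0.23 (SE 0.09, unadjusted p = 0.041 in edgeR fitted across all genes). The log2 fold change was -0.25 without WT mouse 1 and -0.21 with the hepatocyte covariate. With the covariate and without WT mouse 1 together it was only -0.06. Its exons overlap those of Gm26631 on the other strand by 538 bases, with at most 328 counts for Gm26631 against 11985 for Cox5a. Cox4i1, the regulatory subunit to which ATP binds, followed the common pattern with 315, 215 and 233 CPM in WT and 204, 245 and 216 CPM in Lpcat3 KOMac mice. Cox8a, one of the smallest subunits, was at 155, 117 and 122 CPM in WT and 106, 118 and 107 CPM in Lpcat3 KOMac mice. Its highest Lpcat3 KOMac mouse was just above its lowest WT mouse.

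Several subunits of complex IV exist as tissue isoforms, and the liver or ubiquitous form made up nearly all of each pair in every mouse. Per kb of exon, the lung form Cox4i2 was at most 0.22% of Cox4i1 and Cox4i2 together, the heart and muscle form Cox6a2 at most 0.69% of its pair with Cox6a1, and the testis form Cox6b2 at most 0.42% of its pair with Cox6b1. The heart and muscle form Cox7a1 was between 2.95% and 3.92% of its pair with Cox7a2. Cox7b2 and Cox8c had 0 counts in every library, where 3 counts is taken as the floor of detection. Cox8b had 5 counts in WT mouse 1, 3 in Lpcat3 KOMac mouse 1 and 0 elsewhere. Together with Cox4i2 these were the 4 genes not tested. The ubiquitous Cox6a1 (233, 155 and 153 CPM in WT and 140, 160 and 152 CPM in Lpcat3 KOMac mice) was the highest of all 94 genes per kb of exon, at 236 CPM. Cox7a2 and Cox7b had -0.21 (SE 0.18) and -0.23 (SE 0.21) on the log2 scale, Cox6b1 had -0.20 (SE 0.15) and Cox7a1 had -0.23 (SE 0.27). Cox7a2l, which links complexes III and IV, was nearly even, at 153, 135 and 146 CPM in WT and 135, 149 and 121 CPM in Lpcat3 KOMac mice.

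Both genes of complex IV above 0 were of this low class. Cox6a2 was at 0.34, 0.34 and 0.39 CPM in WT and 0.31, 0.42 and 1.02 CPM in Lpcat3 KOMac mice, a log2 fold change of 0.70 (SE 0.50) that rested on Lpcat3 KOMac mouse 3 and fell to 0.07 without it. Of its 680 exonic bases, 274 overlap exons of Itgad on the other strand, and Itgad was highest in the same mouse (601 counts, against at most 48 for Cox6a2). Without a stated strand setting the reads of these genes cannot be told apart. Cox6b2 was at 0.32, 0.54 and 0.44 CPM in WT and 0.50, 0.68 and 0.34 CPM in Lpcat3 KOMac mice, with overlapping genotypes.

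Complex V had 16 of 17 genes below 0, with a median of -0.19, which was -0.01 (9 of 17 below 0) without WT mouse 1. The catalytic head of the enzyme was the most abundant part of the whole set in CPM. Atp5b, its catalytic beta subunit, was at 945, 607 and 573 CPM in WT and 621, 779 and 587 CPM in Lpcat3 KOMac mice, and Atp5a1, the alpha subunit, at 794, 551 and 516 CPM in WT and 529, 643 and 549 CPM in Lpcat3 KOMac mice. In both genes Lpcat3 KOMac mouse 2 exceeded WT mice 2 and 3. Their log2 fold changes were -0.10 (SE 0.23) and -0.11 (SE 0.19). The rotor stalk subunits Atp5c1, Atp5d and Atp5e had log2 fold changes of -0.09 (SE 0.16), -0.20 (SE 0.18) and -0.28 (SE 0.15), and the genotypes overlapped in each of these 5 genes. Per kb of exon Atp5a1 was the highest gene of complex V (190 CPM) and Atp5s, a factor named with the complex, the lowest (2.41 CPM). Atp5s was at 3.82, 3.43 and 3.19 CPM in WT and 3.19, 4.01 and 3.85 CPM in Lpcat3 KOMac mice, a log2 fold change of 0.08 (SE 0.19).

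The c subunit, which forms the rotating ring of the membrane part, is encoded by 3 genes whose mature proteins are the same. Per kb of exon, Atp5g3 gave 63.1%, 54.5% and 55.1% of the sum of the 3 genes in WT and 57.5%, 59.5% and 56.5% in Lpcat3 KOMac mice 1 to 3. Atp5g2 gave 28.5% to 36.9% and Atp5g1 8.26% to 9.31%. WT mouse 1 had the largest Atp5g3 share and the smallest Atp5g2 share, and Lpcat3 KOMac mouse 2 came next in both, while the genotype means of the Atp5g3 share were 57.6% ± 4.79 (SD, n = 3) in WT and 57.8% ± 1.54 (SD, n = 3) in Lpcat3 KOMac cells. The log2 fold changes were -0.19 (SE 0.25) for Atp5g3, -0.18 (SE 0.09) for Atp5g2 and -0.10 (SE 0.20) for Atp5g1. Atp5l, which helps to join ATP synthases into dimers, was at 72.4, 56.4 and 62.1 CPM in WT and 52.0, 53.3 and 53.1 CPM in Lpcat3 KOMac mice, with every Lpcat3 KOMac mouse below every WT mouse. Its mean was 63.6 ± 8.09 CPM in WT against 52.8 ± 0.70 CPM in Lpcat3 KOMac cells (SD, n = 3 each), with a log2 fold change of -0.27 (SE 0.11). Atp5j shares 1084 exonic bases with Gabpa, and its level is uncertain to that extent.

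**Figure D4:**
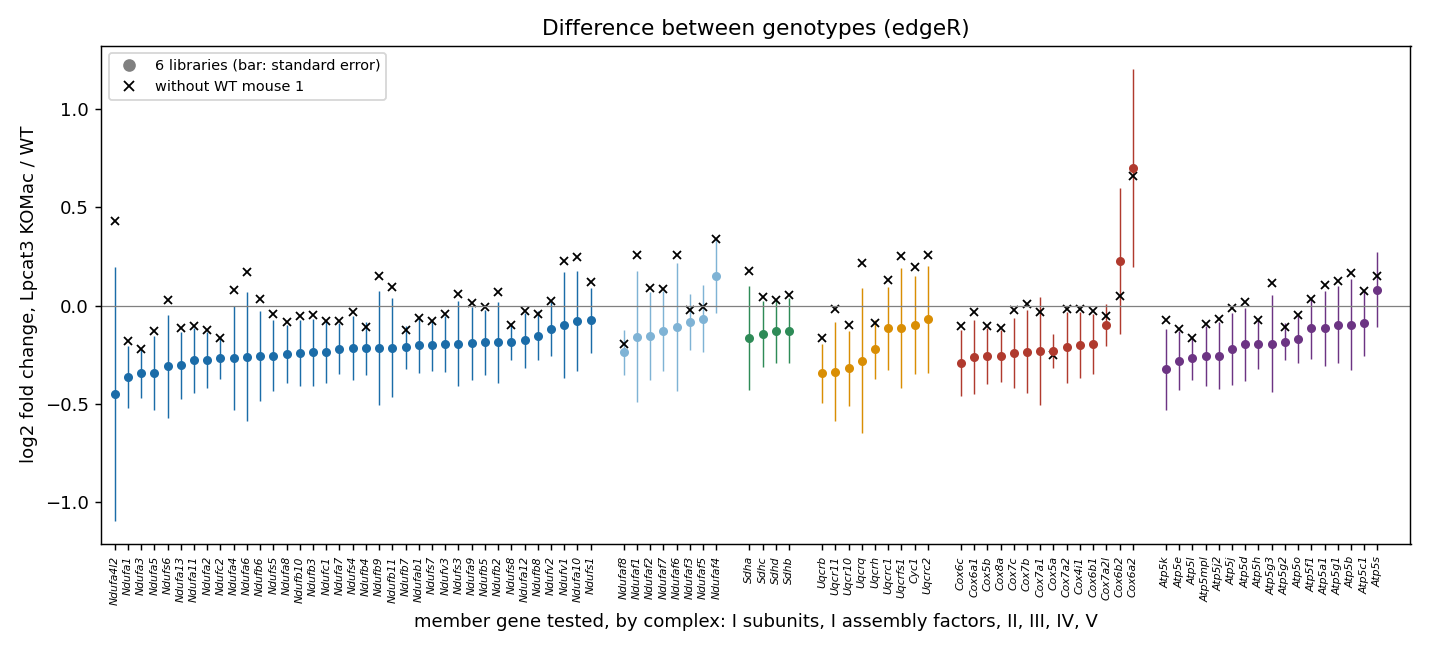
Log2 fold change (Lpcat3 KOMac against WT) of each tested gene by complex (1 left out), as a dot with its SE, and as a cross without WT mouse 1. All but 4 of the dots lay below 0, and the crosses lay on both sides of 0, with Ndufa3, Cox5a, Ndufaf8, Ndufa1 and Atp5l among those that remained below.

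The 9 separated genes were thus Ndufa1, Ndufa2, Ndufa3, Ndufc2, Ndufs8, Ndufaf8, Uqcrb, Cox5a and Atp5l. The genes with an unadjusted p under 0.05 were Ndufa3, Cox5a, Ndufc2 and Atp5l, all within the 9. Of the 9, 5 were among the 38 subunit genes of complex I and 1 among its 8 assembly factors. Complexes III (9 tested), IV (14) and V (17) had 1 each. Complex II had 0, but only 4 of its genes were tested. Beside 5.2% of all genes, 0 of 4 does not set complex II apart. Except for Cox5a, WT mouse 1 was also the highest mouse for each of the 9.

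The 13 subunits made from the mitochondrial genome went the other way. Their summed level was 22169, 21097 and 19722 CPM in WT and 24500, 21633 and 23918 CPM in Lpcat3 KOMac mice, all 13 log2 fold changes were above 0, against 40.1% of all genes, with a median of 0.16, and 2 of them had every Lpcat3 KOMac mouse above every WT mouse, against 2.29% of all genes. All 13 were still above 0 without WT mouse 1, with a median of 0.23, where 55.7% of all genes were below 0. Most of this sum came from 7 genes, since mt-Nd3, mt-Nd4l, mt-Co2, mt-Co3, mt-Atp6 and mt-Atp8 were below 4 CPM in every library. These low genes are included in the 13 and in the medians above. Why their counts were so low was not tested, and the counts are not read here as their expression. The lowest p was that of mt-Nd6, at 584, 599 and 651 CPM in WT and 729, 667 and 815 CPM in Lpcat3 KOMac mice, a log2 fold change of 0.27 (SE 0.11), and it did not pass adjustment. The ratio of the 13 to the 94 nuclear genes in summed CPM was 2.36, 3.28 and 3.07 in WT and 3.99, 2.95 and 3.84 in Lpcat3 KOMac mice. It was lowest in WT mouse 1, and Lpcat3 KOMac mouse 2 was below WT mice 2 and 3.

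**Figure D5:**
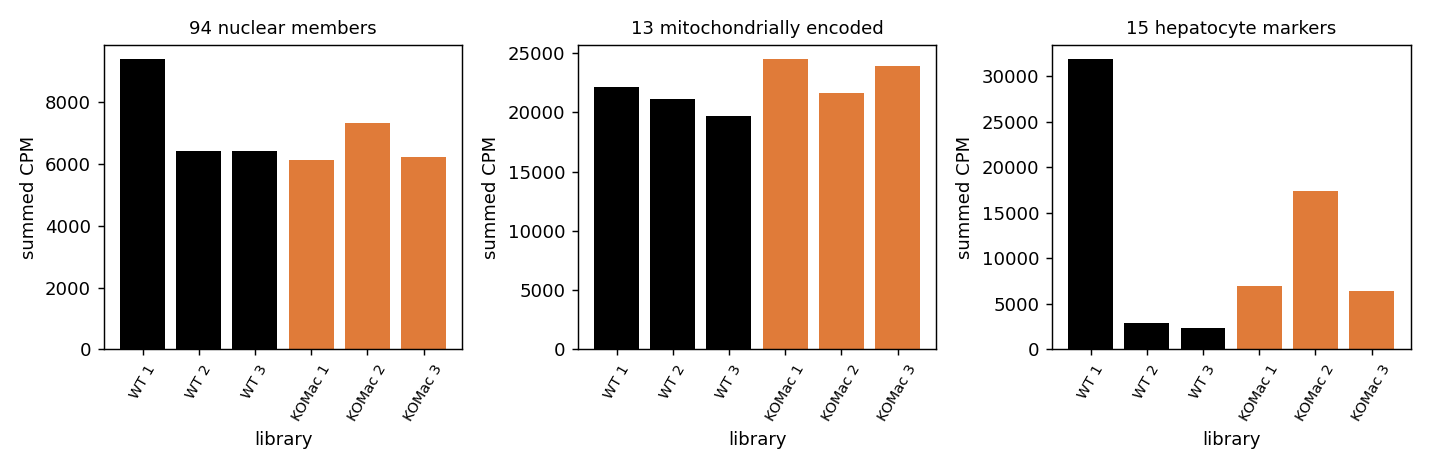
Summed CPM per library of the 94 nuclear respiratory chain genes, the 13 mitochondrially encoded subunits and 15 hepatocyte markers, each bar 1 mouse (black WT, orange Lpcat3 KOMac), axes from 0. The nuclear genes and the hepatocyte markers were highest in WT mouse 1 (9405 and 31857 CPM) and next in Lpcat3 KOMac mouse 2 (7338 and 17378 CPM), while the mitochondrially encoded sum was highest in Lpcat3 KOMac mouse 1 (24500 CPM).

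Other genes that serve the chain are given beside the same shares of all genes, 59.9% below 0 and 1.57% lower at an unadjusted p under 0.05. Of 43 tested assembly factors outside the rule, 38 were below 0 with a median of -0.11, and 2, Uqcc2 and Cox14, were lower at an unadjusted p under 0.05. Only 20 of the 43 were below 0 without WT mouse 1, with a median of 0.01. Uqcc2, an assembly factor of complex III, was at 25.0, 24.4 and 22.5 CPM in WT and 18.6, 19.1 and 19.7 CPM in Lpcat3 KOMac mice, a log2 fold change of -0.33 (SE 0.09) that stayed between -0.37 and -0.27 with any 1 mouse left out. Cox14, an assembly factor of complex IV named after its values were seen, was at 48.4, 47.5 and 45.7 CPM in WT and 36.6, 40.8 and 37.8 CPM in Lpcat3 KOMac mice. In both the genotypes were well apart and WT mouse 1 lay close to the other WT mice. Of 19 genes for electron carriers and coenzyme Q synthesis, 16 were below 0 with a median of -0.09 and 1, Coq2, was lower at an unadjusted p under 0.05, at 52.4, 49.3 and 45.6 CPM in WT and 40.6, 43.7 and 42.7 CPM in Lpcat3 KOMac mice. Without WT mouse 1 the direction of the list turned, with 4 of 19 below 0 and a median of 0.10. Of 17 genes of the tricarboxylic acid cycle, which supplies NADH and succinate, 15 were below 0 with a median of -0.05 and 0 reached an unadjusted p under 0.05. That direction turned too without WT mouse 1, with 2 of 17 below 0 and a median of 0.19. The lowest p there was that of Idh3g, with a log2 fold change of -0.15 (SE 0.08). Of 13 regulators of respiratory gene transcription, 7 were below 0 with a median of -0.04 and 0 reached that p (5 of 13 below 0 and a median of 0.02 without WT mouse 1). Esrra, a nuclear receptor that drives mitochondrial genes, was the first of them by p, with -0.11 (SE 0.10). None of these genes had an adjusted p under 0.05 in edgeR with Benjamini-Hochberg adjustment.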

How the data were processed

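A poly-A selected RNA library per mouse was sequenced for F4/80-positive liver cells (3 WT, 3 Lpcat3 KOMac). The authors deposited raw read counts per Ensembl gene, without normalization. The submitters' processing notes name Trimmomatic 0.36, STAR 2.5.2b, featureCounts (Subread 1.5.2) and GRCm38; the strand setting and the treatment of reads with several matches are not given in the sources used here. Of the gene identifiers, 49056 were found in GENCODE M21, with the same start and end for 72 of the 94 genes, and symbols were taken from there.

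Genotypes were compared by edgeR 4.0.16 under R 4.3.3 (TMM, default expression filter with a minimum count of 10, robust quasi-likelihood test, genotype only), and p-values were adjusted over 16134 genes. SE was taken as the size of the log2 fold change over the root of F. The paper states no test for these counts. Alternatives were DESeq2 1.42.0, limma-voom (limma 3.58.1), DESeq2's size factors, total counts, other filters, a replicate block, the hepatocyte covariate, a length offset (a smooth curve of log2 deviation on log2 exonic length) and each mouse left out. Precision was set by the spread between mice more than by depth. The p-values set each difference against the spread between 3 mice per genotype, estimated in edgeR with information from all genes tested.

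Named genes were the core, complex II, catalytic, isoform, F1 and c subunits, the 3 lowest and 3 highest log2 fold changes, genes at an unadjusted p under 0.05, the highest and lowest gene of each complex per kb and the lowest p of each other pathway list; others shown were chosen after their values were seen. Members, lists and alternatives were chosen with earlier results of these data known. The labels do not say whether same-numbered mice were paired, and the correlations of their deviations, from -0.60 to 0.36, cannot decide it. Exons of 27 of the 94 genes overlap another gene (bedtools 2.31.1), in 14 of them one above 10% of the member's highest count, and 22 have pseudogene transcripts at least 95% identical over 100 bases or more (blastn 2.17.0), with at most 86 counts in a library. Protein sequences were not used here, and 1 gene that the rules would name is not reported here by name.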

Additional observations from a re-analysis of the deposited data

How the results depend on the processing

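The calls did not change: 0 of the respiratory chain genes had an adjusted p under 0.05 in the fit of 6 libraries or in any alternative run. In the edgeR fit of 6 libraries 0% of all genes tested had one, Lpcat3 included. Their median log2 fold change was below 0 in every alternative, between -0.30 and -0.02. The value of -0.02, without WT mouse 1, stood beside -0.03 over all genes. Each move was smaller than the within-genotype SD of 0.22, but that SD includes WT mouse 1 and so cannot show that the median was stable. When single mice were left out, the number below 0 lay between 50 (without WT mouse 1, against 55.7% of all genes) and 87. The number separated and lower lay between 7 and 34. It was 7 without Lpcat3 KOMac mouse 1 (4.95% of all genes) or mouse 3 (6.92%). It was 34 without Lpcat3 KOMac mouse 2 (7.79%) and 18 without WT mouse 2 (7.81%). The number separated and higher lay between 0 and 6. It was 6 without WT mouse 1, against 16.9% of all genes, and 2 without Lpcat3 KOMac mouse 1, against 5.30%. The length offset left 5 separated and lower (3.73% of all genes) instead of 9 (5.2% of all genes). The causes were not tested. Total counts reversed 7 named genes: Ndufs1 (0.030), Ndufv1 (0.011), Cyc1 (0.010), Atp5b (0.011), Atp5c1 (0.012), Atp5g1 (0.0072) and Ndufaf5 (0.030). Leaving out a mouse reversed 20 of the named genes without WT mouse 1, 3 without Lpcat3 KOMac mouse 1, 1 without Lpcat3 KOMac mouse 2 and 5 without Lpcat3 KOMac mouse 3. Their log2 fold changes then ranged from -0.23 to 0.10 for Atp5a1, from -0.23 to 0.17 for Atp5b, from -0.19 to 0.074 for Atp5c1, from -0.31 to 0.020 for Atp5d, from -0.21 to 0.12 for Atp5g1, from -0.35 to 0.12 for Atp5g3, from -0.020 to 0.47 for Cox6b2, from -0.16 to 0.0056 for Cox7a2l, from -0.35 to 0.0096 for Cox7b, from -0.25 to 0.20 for Cyc1, from -0.41 to 0.080 for Ndufa4, from -0.83 to 0.43 for Ndufa4l2, from -0.14 to 0.036 for Ndufaf5, from -0.17 to 0.12 for Ndufs1, from -0.32 to 0.059 for Ndufs3, from -0.25 to 0.23 for Ndufv1, from -0.21 to 0.023 for Ndufv2, from -0.32 to 0.18 for Sdha, from -0.22 to 0.055 for Sdhb, from -0.23 to 0.046 for Sdhc, from -0.22 to 0.028 for Sdhd, from -0.23 to 0.13 for Uqcrc1, from -0.30 to 0.26 for Uqcrfs1. The labels do not say whether same-numbered mice were paired. Their deviations correlated at -0.30, -0.60 and 0.36, and those of differently numbered mice between -0.58 and 0.67. So few values cannot decide whether the mice were paired. The edgeR fit with the replicate block gave a median of -0.18, 86 of 90 below 0 and 0 called. At an unadjusted p under 0.05 it found 0 of the 90, against 4 without the block. Over all 16134 genes tested it found 138 at that p, against 426 without the block.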
